A study of Mus musculus with 128 samples.

Results

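The open chromatin of cultured mouse fetal liver cells was compared between Pard3HMKO control and Pard3WT control libraries, with 2 ATAC-seq libraries of each. These are 4 of the 22 ATAC-seq libraries in a series of 128 samples on PAR3 in liver development and regeneration; the other samples measured RNA. Pard3HMKO cells carried the genotype Foxa3-Cre;Pard3-fl/fl and Pard3WT cells carried Foxa3-Cre alone, so both genotypes hold the Cre transgene. Both came from C57BL/6 embryos at E15.5, were cultured for 2 days with the treatment given as control, and entered the assay as 1000 cells per library of a tissue given as hepatocyte. The labels name no separate animals or cultures, so a p-value over libraries measures only the spread between these samples, which may be technical. Peaks of the 4 libraries that overlapped or touched were merged into 56450 regions on mm10. A region was called gained where both Pard3HMKO libraries and neither Pard3WT library had a peak, and lost where both Pard3WT libraries and neither Pard3HMKO library had one. By this rule 1472 regions were gained, which is 2.61% of the regions, and 6415 were lost, which is 11.4%. In a bulk assay of this kind, fewer cells of a type and less open chromatin per cell cannot be told apart.

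PAR3, the product of Pard3, is a scaffold protein of the apical polarity complex, where it binds PAR6 and atypical protein kinase C and helps place tight junctions; in hepatocytes the apical surface lines the bile canaliculus. Foxa3-Cre deletes floxed genes in cells that express Foxa3, a transcription factor of the liver and other endoderm. ATAC-seq uses a transposase that cuts DNA where nucleosomes leave it accessible, so its peaks mark promoters, enhancers and other open sites. An absent peak means that no peak was listed, not that the site was closed. Which exons of Pard3 are deleted is not given in the sources used here, and open chromatin does not check the loss of the protein.

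The libraries differed in ways that touch the results. The Pard3HMKO libraries held 26293 and 35301 peaks, and the Pard3WT libraries held 35879 and 45898, a mean difference of -10091.5 peaks that did not pass an exact 2-sided permutation test (p = 0.3333, the smallest that 2 against 2 allow). Of the 10 hepatocyte genes used as a check, 9 were in the annotation, and all 9 had a peak within 10 kb in each of the 22 libraries. Regions near macrophage and myeloid genes set the Pard3WT control libraries apart: 12 and 16 of these regions had a peak in the Pard3HMKO libraries, against 39 and 42 in the Pard3WT libraries and 7 to 23 in the other 18. Of the 16 myeloid markers, 7 and 9 had a peak within 10 kb in the Pard3HMKO libraries and 12 and 15 in the Pard3WT libraries. Adgre1, Cd5l, Clec4f, Marco, Lyz2 and Mpo had none in either Pard3HMKO library, and Clec4f had none in either Pard3WT library. Adgre1, Marco and Mpo also had none in Pard3WT replicate 1. Regions near endothelial genes numbered 19 and 27 in the Pard3HMKO libraries, against 35 and 39 in the Pard3WT libraries and 12 to 30 in the other 18. The part of these cells in the lost regions was not tested, and the values are given again beside the lost regions.

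The promoters of 8 genes, most of them chosen after their values were seen, are shown as examples of start sites inside gained and lost regions. Each sequence runs from 250 bases before to 50 bases after a RefSeq start site on GRCm38.p6, 5′ to 3′ on the gene's strand, and capitals mark a motif. The first pair lay in gained regions: Serpinh1, which encodes the collagen chaperone HSP47, at chr7:99353190-99353489 on the minus strand, and Cldn4, which encodes the tight junction protein claudin-4, at chr5:134946885-134947184 on the minus strand. The capitals in Cldn4 are both copies of the AP-1 letters TGACTCA.
Serpinh1: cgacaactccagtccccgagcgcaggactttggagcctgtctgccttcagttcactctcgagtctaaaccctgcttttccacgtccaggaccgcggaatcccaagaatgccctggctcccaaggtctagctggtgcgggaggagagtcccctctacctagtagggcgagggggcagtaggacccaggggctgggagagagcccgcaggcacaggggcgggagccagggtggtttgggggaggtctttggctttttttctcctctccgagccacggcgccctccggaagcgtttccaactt
Cldn4: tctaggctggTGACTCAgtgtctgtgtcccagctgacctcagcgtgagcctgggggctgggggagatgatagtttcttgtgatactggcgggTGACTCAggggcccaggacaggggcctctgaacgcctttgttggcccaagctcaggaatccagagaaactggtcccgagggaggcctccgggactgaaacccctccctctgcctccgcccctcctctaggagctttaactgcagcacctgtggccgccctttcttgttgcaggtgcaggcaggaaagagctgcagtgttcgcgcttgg

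The next 3 promoters lay in lost regions near genes of blood cells. Ptprc at chr1:138175256-138175555 encodes the leukocyte antigen CD45, Ccl3 at chr11:83649329-83649628 a chemokine of macrophages and other leukocytes, and Pik3cg at chr12:32208610-32208909 a phosphoinositide kinase subunit of blood cells; all lie on the minus strand. The capitals in Pik3cg are the PU.1 letters GAGGAAGT read on the other strand.
Ptprc: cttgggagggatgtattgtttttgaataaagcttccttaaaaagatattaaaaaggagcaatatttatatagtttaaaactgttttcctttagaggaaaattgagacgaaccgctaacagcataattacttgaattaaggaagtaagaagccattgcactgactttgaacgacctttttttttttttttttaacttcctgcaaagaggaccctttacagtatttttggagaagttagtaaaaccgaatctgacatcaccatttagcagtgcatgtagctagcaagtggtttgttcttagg
Ccl3: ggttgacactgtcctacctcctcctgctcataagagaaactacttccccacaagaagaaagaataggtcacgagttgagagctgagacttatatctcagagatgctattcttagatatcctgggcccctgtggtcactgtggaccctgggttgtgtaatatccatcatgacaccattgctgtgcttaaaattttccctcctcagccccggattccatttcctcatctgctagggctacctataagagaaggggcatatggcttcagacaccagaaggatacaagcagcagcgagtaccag
Pik3cg: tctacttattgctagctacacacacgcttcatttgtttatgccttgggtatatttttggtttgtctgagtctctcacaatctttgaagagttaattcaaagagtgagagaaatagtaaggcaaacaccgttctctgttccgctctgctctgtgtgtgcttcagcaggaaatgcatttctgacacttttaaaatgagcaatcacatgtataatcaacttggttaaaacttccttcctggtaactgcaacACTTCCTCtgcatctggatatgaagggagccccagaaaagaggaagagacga

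The last 3 promoters lay in lost regions of genes of hepatocyte function. Nr1i2 at chr16:38294775-38295074 encodes the xenobiotic receptor PXR, Cyp8b1 at chr9:121916256-121916555 the sterol 12-alpha-hydroxylase of bile acid synthesis, and Klkb1 at chr8:45294786-45295085 plasma prekallikrein; all lie on the minus strand. The capitals are the HNF4A letters CAAAGTCCA in Cyp8b1 and the FOXA letters TGTTTAC, read on the other strand, in Klkb1.
Nr1i2: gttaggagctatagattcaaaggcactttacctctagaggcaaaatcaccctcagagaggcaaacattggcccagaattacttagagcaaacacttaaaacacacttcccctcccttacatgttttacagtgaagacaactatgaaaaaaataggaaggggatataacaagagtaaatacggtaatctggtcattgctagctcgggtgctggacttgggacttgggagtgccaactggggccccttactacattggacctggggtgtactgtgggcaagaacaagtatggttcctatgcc
Cyp8b1: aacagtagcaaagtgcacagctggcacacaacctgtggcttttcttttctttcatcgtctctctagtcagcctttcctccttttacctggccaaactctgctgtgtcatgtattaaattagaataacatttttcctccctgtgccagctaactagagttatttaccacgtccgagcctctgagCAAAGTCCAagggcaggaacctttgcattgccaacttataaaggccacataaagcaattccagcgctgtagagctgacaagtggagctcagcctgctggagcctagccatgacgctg
Klkb1: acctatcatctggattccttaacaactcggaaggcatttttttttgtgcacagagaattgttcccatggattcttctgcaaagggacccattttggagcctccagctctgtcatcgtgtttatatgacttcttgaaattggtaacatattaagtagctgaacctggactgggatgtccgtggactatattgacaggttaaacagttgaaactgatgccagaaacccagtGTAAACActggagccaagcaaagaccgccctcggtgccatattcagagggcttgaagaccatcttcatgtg

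All 4 libraries had a peak in 18993 of the 56450 regions, or 33.7%. Lost regions outnumbered gained ones, with gained regions at 18.7% and lost regions at 81.3% of both together. With the 26293 highest-scoring peaks of each library, the number in the smaller Pard3HMKO library, 2436 of 39013 regions (6.24%) were gained and 2822 (7.23%) lost, so gained regions made up 46.3% of both together. The split thus depended on the number of peaks kept per library. Without Pard3HMKO replicate 1 there were 5961 gained and 7123 lost regions, with gained regions at 45.6%. Without Pard3HMKO replicate 2 there were 2628 gained and 10770 lost regions. Without Pard3WT replicate 1 there were 1892 gained and 16298 lost regions, and without Pard3WT replicate 2 there were 3334 and 9750. Leaving a library out makes both calls easier to meet, since fewer peaks are needed for the call of its own genotype and fewer absences for the other. Both counts rose each time a library was left out, and the lost count stayed above the gained count in all of these settings.

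**Figure D1:**
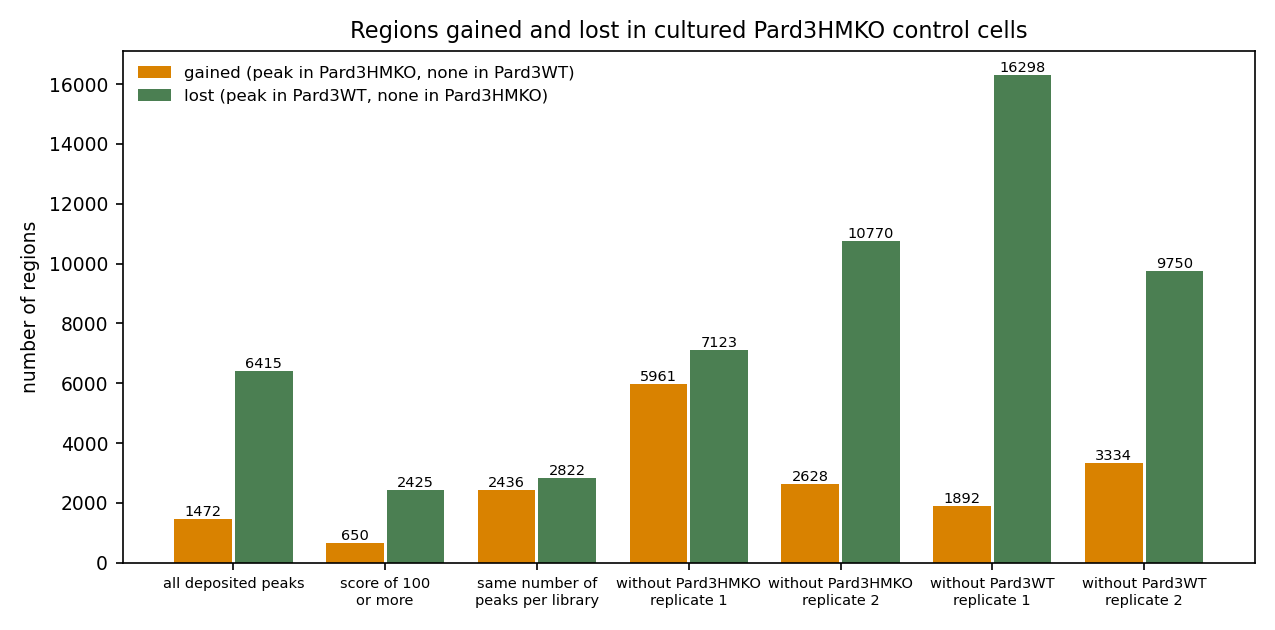
Number of gained and lost regions (vertical axis, regions) with all deposited peaks, with peaks of a score of 100 or more, with the same number of peaks per library and without each of the 4 libraries. Gained regions number 1472 against 6415 lost with all peaks, and 2436 against 2822 with the same number of peaks per library.

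Many called regions lay close to the limit of detection. The deposited peak score, which the authors' caller gives each peak and which starts at 50, ranks the regions within these lists. Taking the lower of the 2 scores behind each call, gained regions had a median of 64.2 and a highest value of 213, and 564 of them, or 38.3%, were below 60. Lost regions had a median of 68.1 and a highest value of 309, and 1966, or 30.6%, were below 60. Regions with a peak in all 4 libraries had a median lowest score of 115. Just outside the rule, 2244 regions had a peak in both Pard3HMKO libraries and 1 Pard3WT library, and in 434 of these that Pard3WT score was below 60. Likewise 4979 regions had a peak in both Pard3WT libraries and 1 Pard3HMKO library, and in 1168 that Pard3HMKO score was below 60.

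Gained and lost regions resembled each other in where they lay and differed from the regions open in all 4 libraries. Their median widths were 450.5 bases for gained and 464 for lost regions, against 891 for regions with a peak in all 4 libraries. Of the gained regions, 4.58% lay within 1 kb of a start site and 41.3% farther than 50 kb from one. The lost regions gave 5.06% and 36.4%, and the regions open in all 4 libraries 42.0% and 22.4%. All regions together gave 19.0% and 31.5%, with a median width of 493 bases. The calls thus held few promoters. In width and in the share of distant sites they lay nearer to all regions than to the regions open in all 4 libraries. Inside a gene span lay 56.9% of gained, 56.4% of lost, 76.5% of regions open in all 4 libraries and 64.5% of all regions. The annotation used gives gene spans and start sites but no exons or introns. Over the 20 chromosomes with 100 or more regions, 2.05% to 3.26% of the regions were gained and 7.42% to 13.04% were lost.

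The strongest gained regions were distal or intragenic sites. The region with the highest lower score, chr9:75422066-75422908, lay 12.1 kb from Mapk6, which encodes the atypical kinase ERK3. Its scores were 213 and 264 in the Pard3HMKO libraries, and neither Pard3WT library had a peak. The second, chr9:14676120-14676868, lay 13.1 kb from Amotl1, an angiomotin family gene whose product binds YAP at junctions, with scores of 196 and 254. Next came chr6:135000160-135000715, 10.9 kb from the RNA helicase gene Ddx47 (196 and 177), and chr7:125898983-125899435 inside Gsg1l (171 in both libraries). The others of the first 10 lay in Atg10, Il17rd and Sugct and near Hmgn2, Ube2q2 and Gm35751, with lower scores of 155 to 165. Il17rd encodes a membrane inhibitor of fibroblast growth factor signalling. All 10 also had a peak in both TPPB libraries.

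The strongest lost regions had higher scores. The region chr3:37769099-37769910, 44.7 kb from Gm5148, had scores of 309 and 350 in the Pard3WT libraries and no peak in either Pard3HMKO library. Of the others in the first 10, 3 lay in Slc15a3, Arhgap30 and Tnfrsf1b. The region chr19:10841519-10842747 in Slc15a3, a lysosomal peptide transporter gene of immune cells, scored 251 and 462. The region chr1:171388661-171389323 in Arhgap30, which encodes a GTPase-activating protein, scored 242 and 266. The region chr4:145233321-145234403 in Tnfrsf1b, which encodes tumour necrosis factor receptor 2, scored 247 and 238. The remaining 6 lay in Sipa1l1 and Dennd2c or nearest to Rplp1, Pip4k2a, Sema6d and Cep19. None of the 10 had a peak in a TPPB library, and those near Sema6d and in Tnfrsf1b had none in any of the other 18 libraries.

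Genes were then read by lists. A gene counted as gained or lost nearby where such a region lay within 10 kb of its span: 1145 of 21887 protein-coding genes, or 5.23%, had a gained region and 4038, or 18.4%, a lost one. Of the 43273 regions near these genes, 2.37% were gained and 10.5% were lost. A gene with more regions nearby can hold a call more easily, and shares of genes were not adjusted for this. Some lists held more regions per gene than all genes did. Examples are 203 at 42 adhesion, matrix and actin genes, 149 at 31 Hippo and YAP genes and 125 at 24 liver transcription factor genes. For such lists the share of regions is the closer comparison. With the same number of peaks per library, 5.67% of 30567 such regions were gained and 6.38% lost. All regions near genes that had a peak numbered 20676 and 27594 in the Pard3HMKO libraries, against 27649 and 34931 in the Pard3WT libraries, so a lower count in Pard3HMKO with all deposited peaks is shared by the whole gene set. At an equal number of peaks they numbered 20696 and 21146 in the Pard3HMKO libraries against 20927 and 21104 in the Pard3WT libraries, which overlap. Counts of regions per list below are on regions merged over the 4 libraries, and counts that include the other 18 libraries are on regions merged over all 22, which can differ by a few regions.

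Apical junction and polarity genes, the family that PAR3 belongs to, held 226 regions. Gained regions numbered 7, or 3.10%, at 5 of the 40 genes, and lost regions 16, or 7.08%, at 14 genes. The order turned round to 12 gained (7.02%) and 6 lost (3.51%) of 171 with the same number of peaks per library. All regions near genes then had shares of 5.67% and 6.38%. Tjp1 encodes ZO-1, a scaffold of tight junctions, and 2 of its 15 regions were gained and 1 was lost. Its strongest gained region, chr7:65379260-65379655, scored 99.2 and 89.2 in the Pard3HMKO libraries and also had a peak in 3 of 3 E17.5 Pard3HMKO and 0 of 3 E17.5 Pard3WT libraries. Ocln encodes the tight junction protein occludin and held 2 gained regions inside the gene. The region chr13:100516673-100517000 scored 79.6 and 162, and chr13:100536147-100536597 scored 65.8 and 95.7. The start site of Ocln had a peak in all 4 libraries. Single gained regions lay near Cgn, Nectin1 and Myo5b, the genes of cingulin, a junctional adhesion molecule and a motor of apical recycling vesicles. On the lost side, chr16:26357989-26358426 in Cldn1, which encodes claudin-1, had scores of 101 and 176 in the Pard3WT libraries. A region in the cadherin gene Cdh1 was also lost, as were 3 near Cdh2.

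Among genes of the Hippo pathway and targets of YAP, a coactivator that the pathway restrains and that acts through TEAD factors, 8 of 149 regions were gained (5.37%) and 12 were lost (8.05%). They lay near 6 and 10 of the 31 genes (19.4% and 32.3%), against 5.23% and 18.4% of all genes. Of all regions near genes, 2.37% were gained and 10.5% lost. With the same number of peaks per library the order turned round, with 11 of 119 regions gained (9.24%) and 2 lost (1.68%). The shares of all regions near genes were then 5.67% and 6.38%. Tead1 encodes a TEAD factor, and chr7:112700040-112700759 inside it scored 98.1 and 145 in the Pard3HMKO libraries. In Crim1, which encodes a membrane protein that binds bone morphogenetic proteins, chr17:78322287-78323352 scored 127 and 253. In Ptpn14, whose phosphatase product binds and restrains YAP, chr1:189773475-189774004 scored 107 and 86.8. Amotl1 held a gained region inside the gene, chr9:14559460-14559934, with scores of 74.0 and 109.85. The lost regions included chr7:25776607-25777115 in the receptor kinase gene Axl (147 and 174 in the Pard3WT libraries), which had no peak in the other 18 libraries. Crim1 and Ptpn14 held lost regions as well as gained ones.

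Biliary and keratin genes held 4 gained regions of 77 (5.19%) and 8 lost ones (10.4%), against 2.37% and 10.5% of all regions near genes. They lay near 3 and 6 of the 22 genes (13.6% and 27.3%), against 5.23% and 18.4% of all genes. With the same number of peaks per library, 9 of 53 were gained (17.0%) and 2 lost (3.77%), again the other order. The shares of all regions near genes were then 5.67% and 6.38%. The gained region at the Cldn4 promoter, chr5:134946590-134947369, scored 69.1 and 140.4 in the Pard3HMKO libraries. It also had a peak in both TPPB libraries and in 3 of 3 E17.5 Pard3HMKO libraries, against 0 of 3 E17.5 Pard3WT libraries. Notch2 encodes a receptor that directs bile duct formation, and its region chr3:98079645-98080110 scored 108 and 87.7. Notch2 held 2 gained and 3 lost regions. In Grhl2, a transcription factor gene of epithelial junctions, chr15:37232317-37232825 scored 97.4 and 73.3.

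Adhesion, matrix and actin genes had 4 gained (1.97%) and 16 lost (7.88%) of 203 regions, against 2.37% and 10.5% of all regions near genes. They lay near 4 and 15 of the 42 genes (9.52% and 35.7%), against 5.23% and 18.4% of all genes. The shares of genes were thus above those of all genes while the shares of regions were below, in a list with more regions per gene. The counts turned round to 17 gained (11.9%) and 7 lost (4.9%) of 143 with the same number of peaks per library. The shares of all regions near genes were then 5.67% and 6.38%. The region chr13:114852481-114853051 in Itga2, the integrin alpha-2 subunit gene, scored 104 and 171 in the Pard3HMKO libraries. It had a peak in both Pard3HMKO PD libraries and in neither Pard3WT PD library. The regions chr5:96802015-96802751 in the annexin gene Anxa3 (84.9 and 198) and chr7:28919601-28920368 in Actn4, which encodes an actin crosslinker (101 and 76.0), shared the pattern of Cldn4: a peak in all 3 E17.5 Pard3HMKO libraries and both TPPB libraries and in no E17.5 Pard3WT library. The lost regions of the list included chr12:80217880-80219256 in Actn1, with scores of 169 and 128 in the Pard3WT libraries, which had a peak in all of the other 18 libraries. Genes of ERK feedback and the immediate early response had 2 gained (1.68%) and 8 lost (6.72%) of 119 regions. These lay near 2 and 7 of the 33 genes (6.06% and 21.2%). The gained ones lay near the transcription factor genes Egr3 and Etv5, and Etv5 also held 2 lost regions. The order turned round to 6 gained and 3 lost of 100 at an equal number of peaks, a gained share close to the 5.67% of all. The strongest of those lost with all deposited peaks, chr17:26497208-26498067, lay 7.52 kb from Dusp1, which encodes a MAP kinase phosphatase, and scored 191 and 270.4.

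Few genes held several gained regions. Of all protein-coding genes, 11 had 3 gained regions, among them Asap1, Dsp, Ets1, Lmo7 and Lpp. Dsp encodes desmoplakin, which anchors keratins at desmosomes, and 3 of its 7 regions were gained and none lost. The lower scores of these 3 were 51.7 to 64.1, and they had a peak in 6, 17 and 13 of the other 18 libraries. Each had a peak in 3 of 3 E17.5 Pard3HMKO libraries, and in 1, 3 and 2 of 3 E17.5 Pard3WT libraries. Ets1 encodes an ETS family transcription factor, and its 3 gained regions were open in both TPPB libraries and in none of the other 16. Lmo7 and Lpp encode proteins of actin filaments and adhesion sites, with 3 gained regions each among 10 and 34. Asap1 also held 4 lost regions, Lpp 6, Ets1 1 and Lmo7 0.

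Lost regions at hepatocyte genes were read next. Cytochrome P450 genes, which encode haem enzymes of sterol, bile acid and drug metabolism, had 10 and 16 regions with a peak in the Pard3HMKO libraries, against 19 and 28 in the Pard3WT libraries. With the same number of peaks per library the values were 10 and 11 in the Pard3HMKO libraries against 12 and 17 in the Pard3WT libraries, so the Pard3HMKO libraries were lower without overlap also at an equal number of peaks. No P450 region was gained, and 5 of 37, or 13.51%, were lost, near Cyp2d10, Cyp3a13, Cyp7b1 and Cyp8b1, a share close to the 10.5% of all regions near genes. At an equal number of peaks, 1 of 22 was lost, near Cyp7b1, and none was gained. At Cyp8b1 the promoter region chr9:121916128-121916675 scored 67.7 and 63.9 in the Pard3WT libraries and had no peak in the Pard3HMKO libraries. A second region there, chr9:121923334-121924237, scored 58.4 and 153. The promoter region had a peak in 15 of the other 18 libraries, including all E17.5 Pard3HMKO libraries.

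Genes of hepatocyte maturation and of complement and coagulation showed the same order. Regions of maturation genes numbered 27 and 35 in the Pard3HMKO libraries against 45 and 53 in the Pard3WT libraries, and 26 and 27 against 37 and 29 with the same number of peaks. Of 61 such regions 1 was gained, 9.90 kb from the apolipoprotein gene Apob, and 11, or 18.0%, were lost, near 9 of the 24 genes, against 10.5% of all regions near genes. At an equal number of peaks, 3 of 44, or 6.82%, were lost, against 6.38% of all, and none was gained. Among the regions lost with all deposited peaks, chr10:24930103-24930607 lay 2.63 kb from Arg1, the arginase gene of the urea cycle, and scored 115 and 89.5 in the Pard3WT libraries. It had a peak in none of the other 18 libraries. Regions of complement and coagulation genes numbered 32 and 42 in the Pard3HMKO libraries against 54 and 71 in the Pard3WT libraries, and 32 and 33 against 41 and 40 with the same number of peaks. None of the 81 regions was gained, and 10, or 12.35%, were lost, against 10.5% of all regions near genes. Lost regions lay near 9 of the 25 genes, against 18.4% of all genes. At an equal number of peaks, 1 of 51 was gained and 3, or 5.88%, were lost, against 6.38% of all. The regions lost with all deposited peaks included chr17:12385463-12385876 in Plg, the plasminogen gene (96.6 and 108), and chr8:13056940-13057714 at F10, the factor X gene (72.5 and 77.1).

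Liver transcription factor genes gave values that depended on the number of peaks. Their regions numbered 70 and 89 in the Pard3HMKO libraries against 78 and 107 in the Pard3WT libraries, and 70 and 68 against 56 and 61 with the same number of peaks per library, where the Pard3HMKO libraries were higher. Gained regions numbered 2 of 125 (1.6%), near Foxa2 and Nr5a2, and lost regions 11 (8.8%), against 2.37% and 10.5% of all regions near genes. They lay near 2 and 10 of the 24 genes (8.33% and 41.7%), against 5.23% and 18.4% of all genes. Nr5a2 held 1 lost region as well. At an equal number of peaks the order turned round to 6 gained (6.38%) and 3 lost (3.19%) of 94. The shares of all regions near genes were then 5.67% and 6.38%, and neither Nr1i2 nor Nr5a2 held a call. With all deposited peaks, 2 regions in Nr1i2 were lost. The region at the Nr1i2 start site, chr16:38294580-38295057, scored 132 and 76.5 in the Pard3WT libraries and had no peak in the Pard3HMKO or TPPB libraries; it had a peak in 2 of 3 E17.5 Pard3HMKO and 3 of 3 E17.5 Pard3WT libraries. Fetal and hepatoblast genes had 38 and 52 regions in the Pard3HMKO libraries against 43 and 61 in the Pard3WT libraries, and 38 and 36 against 27 and 30 with the same number of peaks, which also put the Pard3HMKO libraries higher. Their calls numbered 1 gained (1.27%) and 6 lost (7.6%) of 79 regions. They turned round to 4 gained (7.41%) and 0 lost of 54 at an equal number of peaks. Near the bile acid genes, 2 of 81 regions were gained (2.47%) and 5 lost (6.17%), near 2 and 3 of the 20 genes. At an equal number of peaks, 2 of 50 were gained and 3 lost. The stronger region gained with all deposited peaks lay inside Abcb11, which encodes the bile salt export pump of the canaliculus. It spanned chr2:69288944-69289446, with scores of 97.4 and 137. Lipid and glucose genes had no gained region and 7 lost ones of 119 (5.88%), near 6 of the 27 genes, against 18.4% of all genes. At an equal number of peaks they had 3 gained (3.61%) and 2 lost ones (2.41%) of 83. The strongest region of this list lost with all deposited peaks, chr19:3376878-3377691 in Cpt1a, the mitochondrial fatty acid importer gene, scored 127 and 183 in the Pard3WT libraries. Cell division genes had 1 gained region (1.5%), near Cdk1, and 4 lost ones (6.06%) of 66. At an equal number of peaks they had 2 gained (3.85%) and 3 lost ones (5.77%) of 52. Constitutive genes had 0 gained and 2 lost (3.57%) of 56 regions. Their order turned round to 2 gained (4.44%) and 0 lost of 45 at an equal number of peaks.

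**Figure D2:**
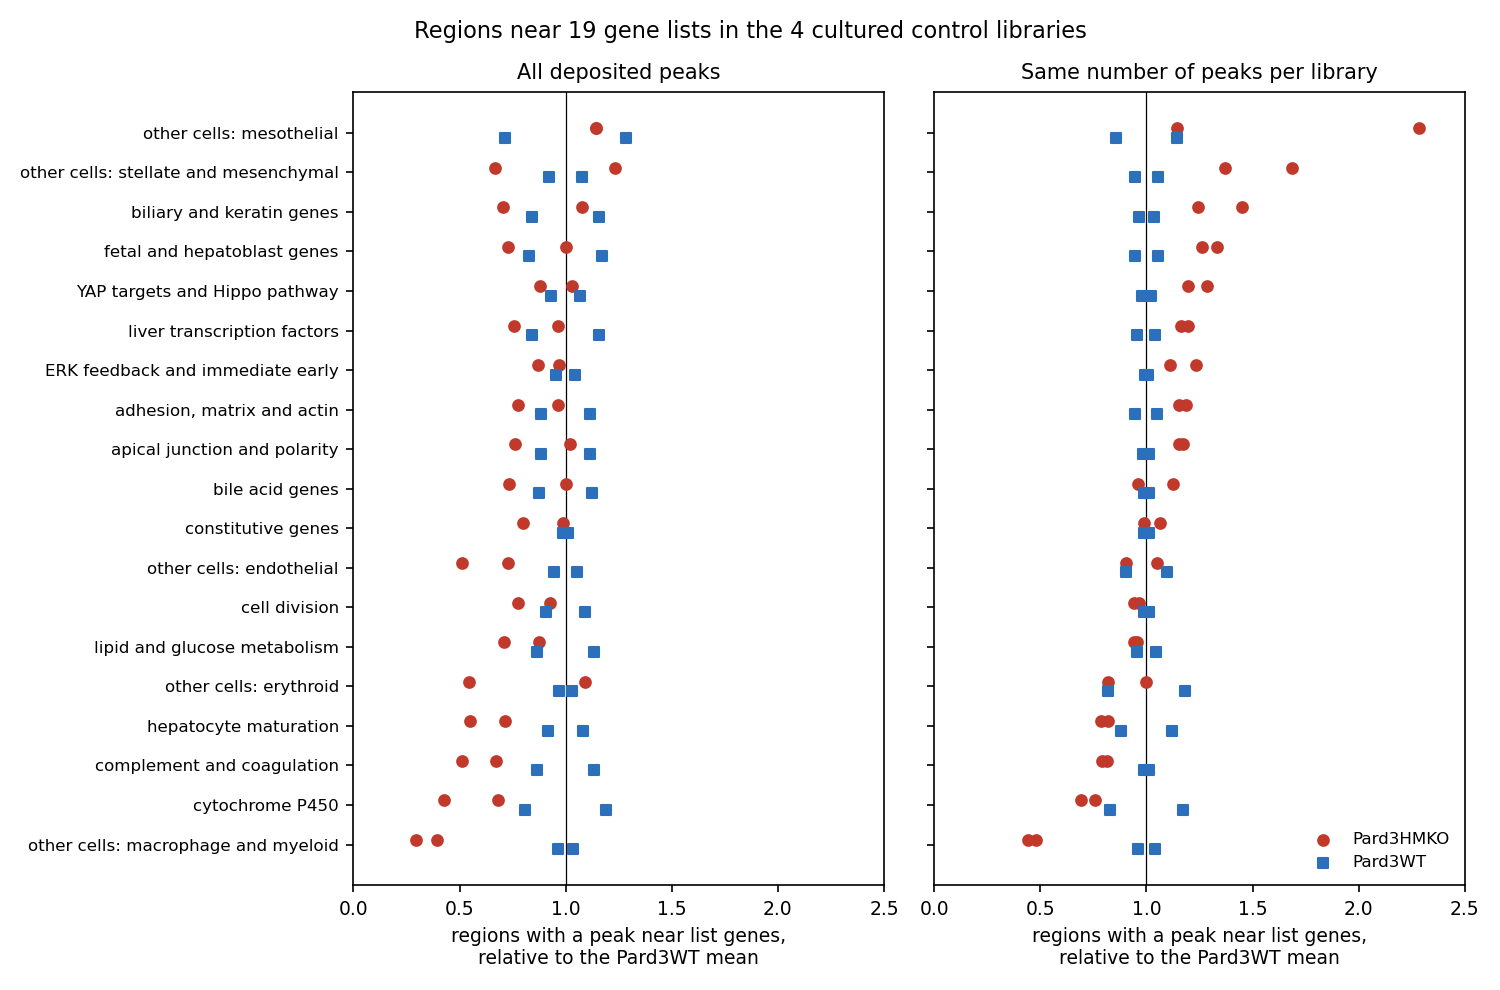
Regions with a peak within 10 kb of the genes of each of 19 lists, per library, divided by the mean of the 2 Pard3WT libraries (horizontal axis, ratio), with all deposited peaks (left) and the same number of peaks per library (right). Red circles are Pard3HMKO and blue squares Pard3WT libraries; P450, complement, maturation and myeloid lists lie lower in Pard3HMKO in both panels, while junction, YAP, biliary, adhesion, ERK, stellate, fetal and liver transcription factor lists lie higher in Pard3HMKO only in the right panel.

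Lost regions were most frequent, among the 19 lists, near macrophage and myeloid genes. Of 48 regions near macrophage and myeloid genes, 20, or 41.7%, were lost and none was gained, against 10.5% lost of all regions near genes. Of the 16 genes, 10 had a lost region (62.5%), against 18.4% of all genes. With the same number of peaks per library, 7 of 33, or 21.2%, were lost, against 6.38% of all, and 12 and 11 regions had a peak in the Pard3HMKO libraries against 26 and 24 in the Pard3WT libraries. Of the 20 lost regions, 7 had a peak in none of the other 18 libraries and none had one in all 3 E17.5 Pard3WT libraries. Of the 4535 lost regions near all protein-coding genes, 2080 had a peak in none of the other 18 libraries. All 3 E17.5 Pard3WT libraries had a peak in 720 of those 4535. Absence from the other 18 libraries was thus not particular to the myeloid losses. Spi1, the gene of the myeloid transcription factor PU.1, had 5 of its 6 regions lost, with lower scores of 50.2 to 85.4. These lost Spi1 regions had a peak in 0 to 11 of the other 18 libraries. Ptprc had 3 of 4 regions lost, and its start site region, chr1:138175083-138175707, scored 121 and 174 in the Pard3WT libraries. Csf1r, the receptor gene of macrophage growth factor, Itgam, an integrin gene of myeloid cells, and Lyz2, the lysozyme gene, had 2 lost regions each. At an equal number of peaks Ptprc had 3 lost regions and Csf1r and Lyz2 had 1 each, while Spi1 and Itgam had none.

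Other cell types differed less. Of 53 regions near endothelial genes, 8 were lost (15.1%) and 1 was gained (1.89%), against 10.5% and 2.37% of all regions near genes. Lost regions lay near 7 of the 16 endothelial genes, against 18.4% of all genes. The lost region in Cdh5, the gene of VE-cadherin, chr8:104110641-104111237, scored 155 and 215 in the Pard3WT libraries. At an equal number of peaks, endothelial regions numbered 19 and 22 in the Pard3HMKO libraries against 23 and 19 in the Pard3WT libraries, so the groups overlapped. Regions near erythroid genes numbered 9 and 18 in the Pard3HMKO libraries against 16 and 17 in the Pard3WT libraries, and those near stellate and mesenchymal genes 13 and 24 against 18 and 21. At an equal number of peaks the stellate and mesenchymal values were 13 and 16 in the Pard3HMKO libraries against 10 and 9 in the Pard3WT libraries. Regions near mesothelial genes numbered 8 and 8 against 5 and 9.

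The genes with the most lost regions held up to 12 of them. Tbxas1, which encodes thromboxane synthase of platelets and macrophages, had 12 of its 23 regions lost. Apbb1ip, whose product RIAM activates integrins in leukocytes, had 8 of 11 lost, and Elmo1, a gene of phagocytosis, had 7 of 24. Pde4d, a phosphodiesterase gene, had 11 of 49 lost and Itpr1, a calcium channel gene, 8 of 29. Cradd had 7 of 12 lost, and Foxp1, Rin2 and Tspan14, which the naming rule leaves out, had 7 lost regions each as well. In all, 304 genes had 3 or more lost regions, and the share of myeloid cells in these losses was not tested.

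**Figure D3:**
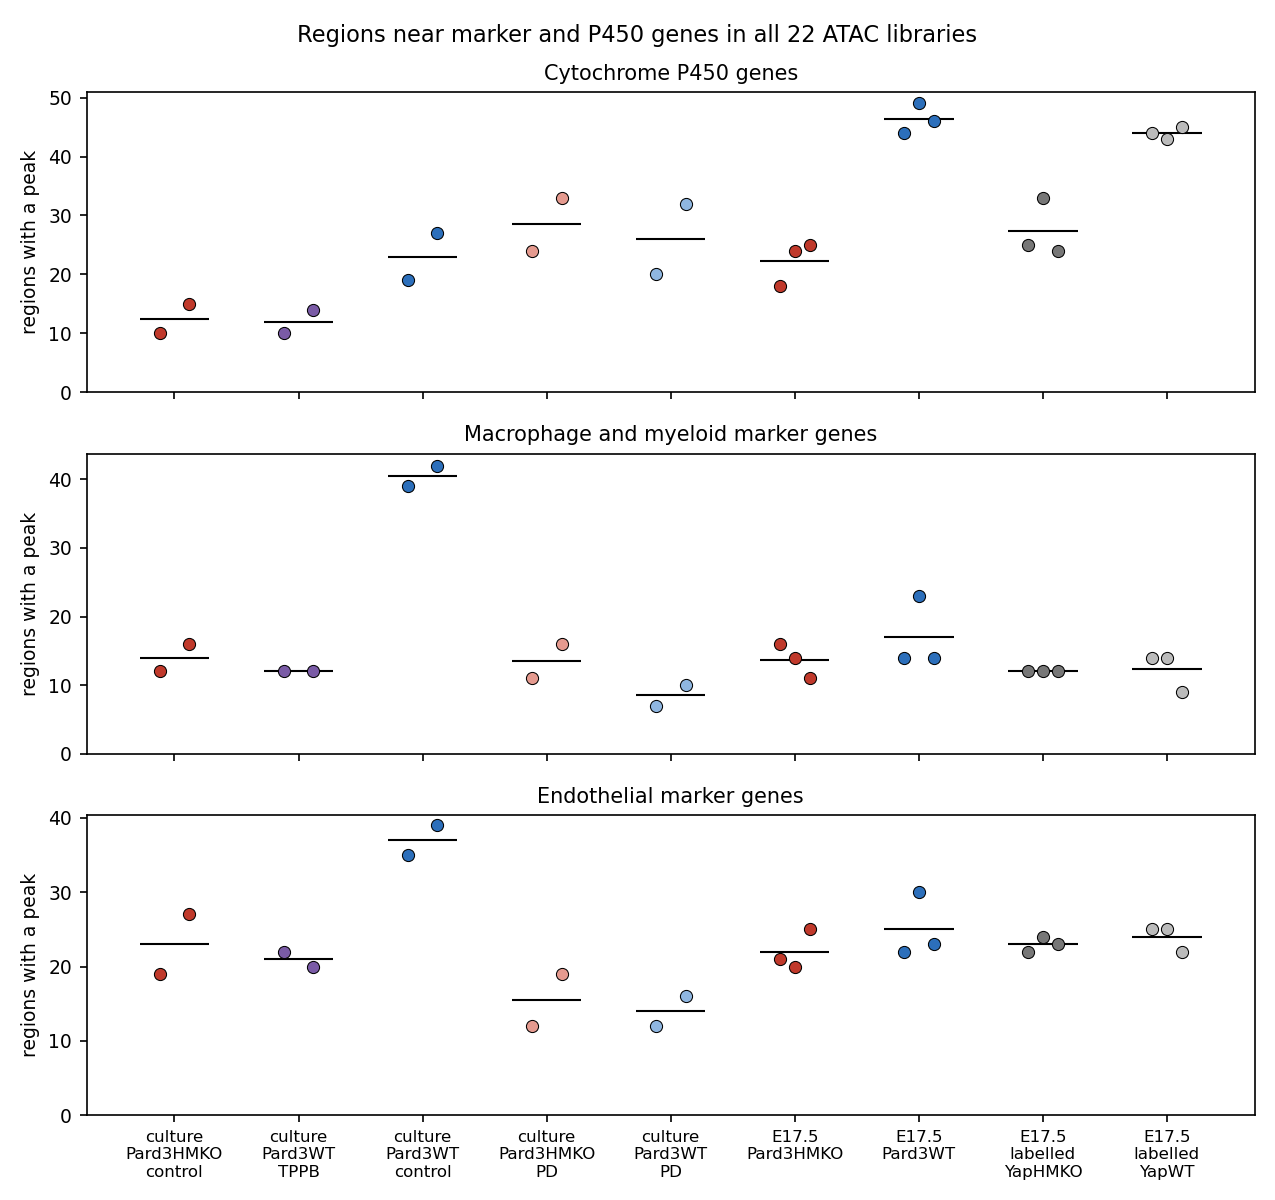
Regions with a peak near cytochrome P450, macrophage and myeloid, and endothelial genes (vertical axes, regions) in each of the 22 ATAC-seq libraries by group, on regions merged over all 22; each point is a library and each line a group mean. Myeloid regions number 39 and 42 in the cultured Pard3WT control libraries and 7 to 23 in all others, which include 12 and 16 in Pard3HMKO control.

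The other 18 ATAC-seq libraries took no part in the rule, so the same regions were read in them. They comprise Pard3WT cultures with TPPB, an activator of protein kinase C (2), Pard3HMKO and Pard3WT cultures with an agent labelled PD that the labels do not spell out (2 each), and uncultured E17.5 livers labelled Pard3HMKO, Pard3WT, YapHMKO and YapWT (3 each). The loss of Yap1 was not checked in the libraries labelled YapHMKO. Of the 1472 gained regions, 59.4% and 82.7% had a peak in the TPPB libraries, and 6.45% and 12.6% in the Pard3HMKO PD libraries against 6.93% and 9.85% in the Pard3WT PD libraries. Both TPPB libraries had a peak in 812 of them, or 55.2%, against 39.8% of all regions, and 1211, or 82.3%, had no peak in any of the 4 PD libraries, against 46.6% of all regions. The gained sites were thus mostly open with TPPB and mostly without a listed peak with PD. TPPB and PD libraries held 24270 to 34216 peaks, fewer than the Pard3WT control libraries.

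At E17.5, gained regions had a peak more often in Pard3HMKO than in Pard3WT libraries: 19.7% to 21.3% of them against 11.3% to 12.4%, with no overlap over 3 libraries each. All regions had a peak at shares of 45.7% to 46.6% in E17.5 Pard3HMKO libraries against 43.6% to 49.1% in E17.5 Pard3WT libraries, which overlap. The libraries labelled YapHMKO held a peak in 18.1% to 19.4% of the gained regions, against 10.1% to 13.2% for those labelled YapWT. For gained regions called at an equal number of peaks, the E17.5 Pard3HMKO share was 30.8% to 32.2% against 20.1% to 23.4% in E17.5 Pard3WT libraries. Lost regions had a peak at shares of 20.3% to 21.0% in E17.5 Pard3HMKO libraries against 21.4% to 33.1% in E17.5 Pard3WT libraries. For lost regions called at an equal number of peaks the shares were 23.5% to 24.8% in E17.5 Pard3HMKO against 24.6% to 39.1% in E17.5 Pard3WT libraries, which overlap. In the TPPB libraries, 4.72% and 10.6% of the lost regions had a peak. Of the lost regions, 3053, or 47.6%, had no peak in any of the other 18 libraries, against 89, or 6.05%, of the gained regions and 48, or 0.253%, of the regions open in all 4 libraries. Most gained sites thus had a listed peak in at least 1 other library.

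**Figure D4:**
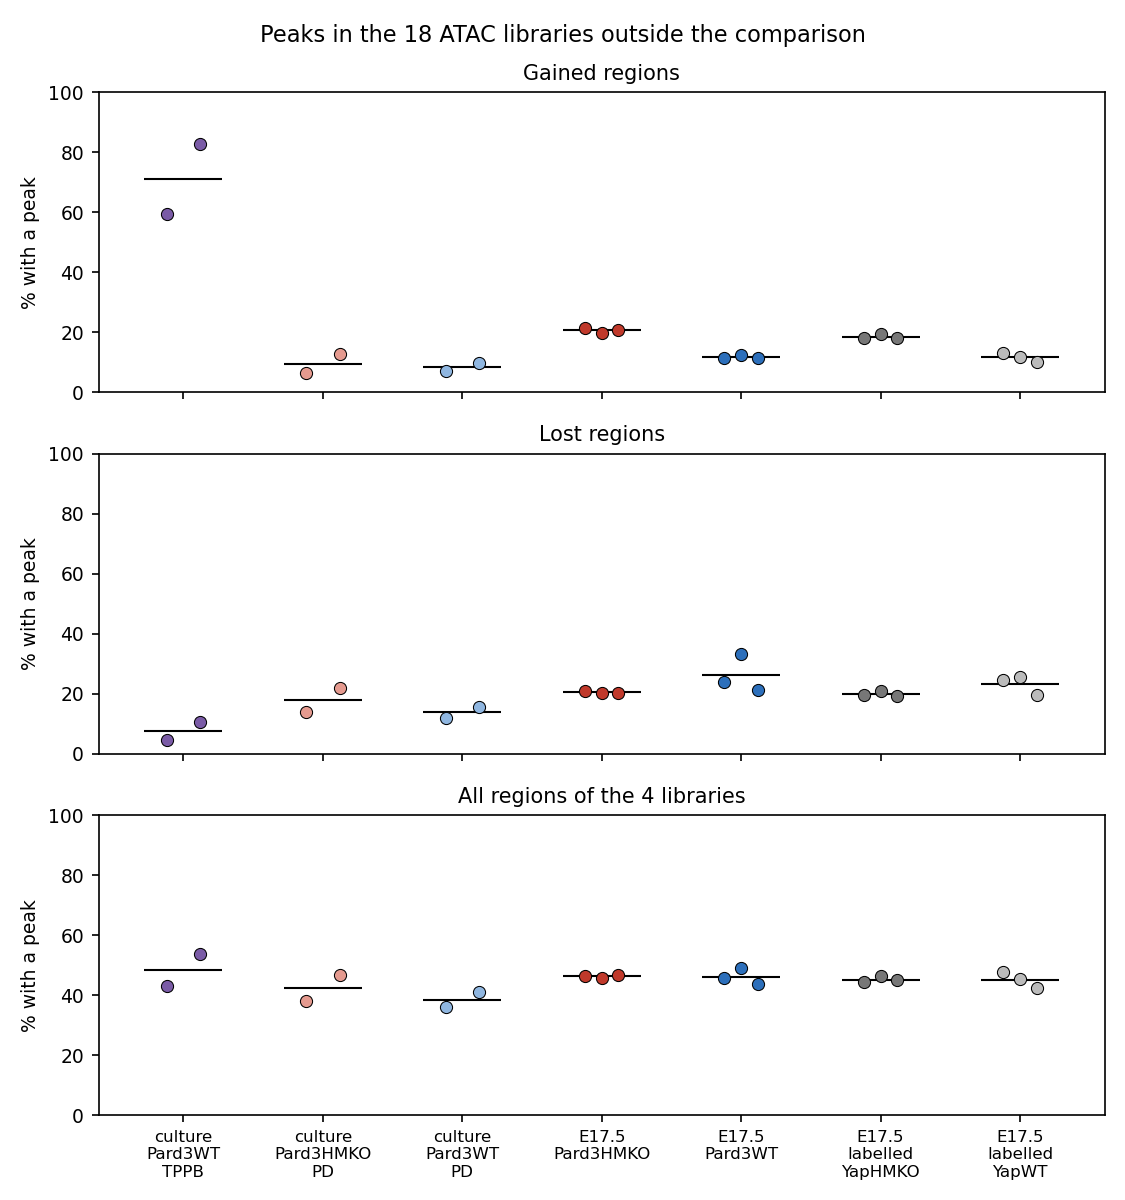
Share of gained, lost and all regions (vertical axes, %) with a peak in each of the 18 ATAC-seq libraries outside the comparison, each point a library and each line a group mean. Gained regions reach 59.4% and 82.7% in the TPPB libraries and 19.7% to 21.3% in E17.5 Pard3HMKO against 11.3% to 12.4% in E17.5 Pard3WT libraries.

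Gained regions that were also open only in the Pard3HMKO arm at E17.5, in all 3 libraries and no Pard3WT library, numbered 94, or 6.39%, and 18 went the other way. Over all regions, 2.46% had this pattern at E17.5. The matching pattern in libraries labelled YapHMKO and YapWT held for 70 gained regions, or 4.76%, against 2.03% of all regions, and 10 went the other way. Both patterns together with a peak in both TPPB libraries held for 33 gained regions, or 2.24%, against 0.771% of all regions. They include the regions near Amotl1 and Ddx47, in Gsg1l, Klhl29 and Syn2, in Anxa3 and Actn4, and at the Cldn4 promoter. In the other direction, 1.96% of the lost regions were lost at E17.5 too, against 1.75% of all regions, and 58 went the other way. In the libraries labelled YapHMKO and YapWT, 85 of the lost regions, or 1.325%, were lost, against 1.3% of all regions, and 49 went the other way. On regions merged over all 22 libraries, the 96 regions gained both in culture and at E17.5 were 6.59% of the culture's 1457 and 3.18% of the 3019 gained at E17.5; the 123 lost in both were 1.93% of the culture's 6379 and 4.68% of the 2626 lost at E17.5. With PD, 11 of the gained regions (0.747%) were gained in Pard3HMKO over Pard3WT and 7 (0.48%) were lost. Of the lost regions, 30 (0.468%) were lost with PD and 76 (1.185%) were gained. Over all regions 1.71% were gained and 0.535% lost with PD, so none of these shares was above that of all regions. Lost in both E17.5 and PD comparisons were a region in Fbxl2 and one each nearest to Unc5b and Scfd1.

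Promoters were a small share of the calls. Among 21263 RefSeq windows of 300 bases at 17492 genes, 48 windows of 47 genes overlapped a gained region, 268 windows of 243 genes a lost region and 9517 windows a region open in all 4 libraries. Letters were searched on both strands, and a match is a description of the window, not a site. The AP-1 letters TGACTCA were in 5 of the 48 gained windows (10.4%), 12 of the 268 lost windows (4.48%) and 4.66% of every promoter window. The PU.1 letters GAGGAAGT, chosen after the myeloid genes were seen, were in 1 gained window (2.08%), 29 lost windows (10.8%) and 3.13% of all. The HNF4A letters CAAAGTCCA were in 0 gained windows, 5 lost windows (1.87%) and 0.452% of all. The TEAD letters ACATTCC were in 2 gained, 4 lost and 3.38% of all windows, and the FOXA letters TGTTTAC in 3, 7 and 3.00% of all. The ETS letters CCGGAAGT were in 1 gained and 5 lost windows and in 9.77% of windows open in all 4 libraries. The CEBP letters TTGCGCAA were in 0 gained and 1 lost window, the HNF1 motif in 1 gained and 0 lost windows, and the NFI motif in 0 of either. In the sequences shown above, the Cldn4 window holds AP-1 letters at positions 11 to 17 and 93 to 99, counted from 1 at its 5′ end. The Pik3cg window holds the PU.1 letters at positions 249 to 256 and the Cyp8b1 window the HNF4A letters at positions 184 to 192.

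**Figure D5:**
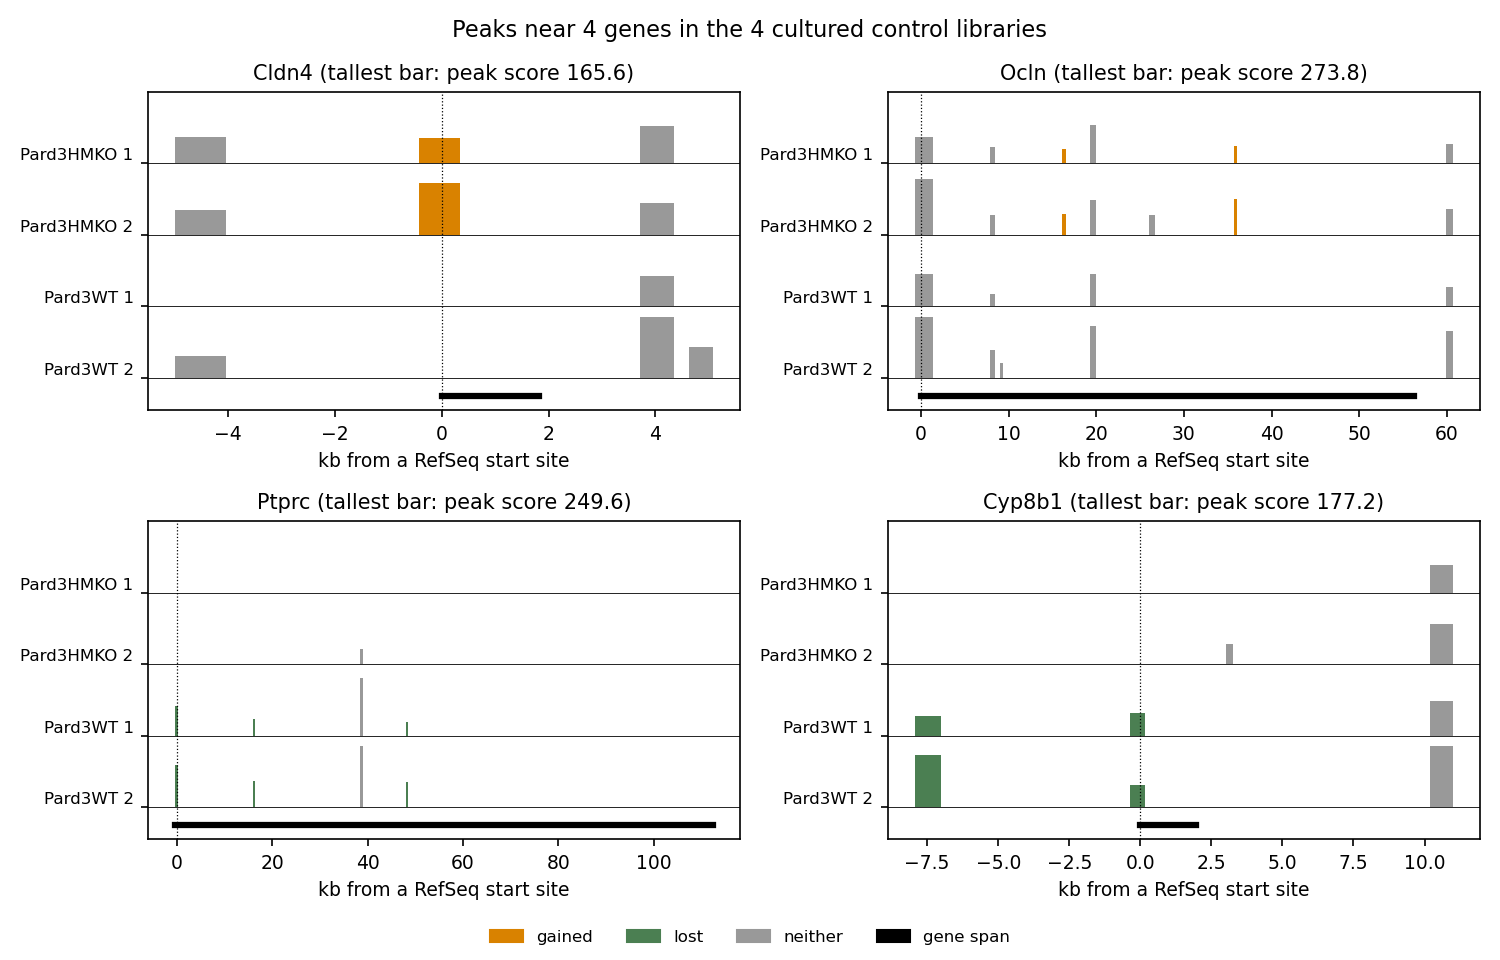
Peaks near Cldn4, Ocln, Ptprc and Cyp8b1 in the 4 libraries, Pard3HMKO above Pard3WT, against distance from a RefSeq start site (horizontal axis, kb); bar height is the peak score, scaled to the tallest bar of each panel, and black bars are gene spans. Gained peaks (orange) lie at the Cldn4 start and inside Ocln, and lost peaks (green) at the Ptprc and Cyp8b1 starts.

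Pard3 and Yap1 held no gained or lost region, while Alb and Afp held lost ones. Pard3, at chr8:127063381-127612286, had 24 regions within 10 kb, of which 10 had a peak in all 4 libraries, and none was gained or lost. The Pard3HMKO libraries had a peak in 13 and 17 of these regions, and the Pard3WT libraries in 13 and 17. At the Pard3 start site, chr8:127063248-127064962, the scores were 129 and 259 in the Pard3HMKO libraries against 156 and 108 in the Pard3WT libraries. Yap1, at chr9:7931999-8004638, had 4 regions and none was gained or lost. Alb, the serum albumin gene, had 3 regions: chr5:90473751-90478114 had a peak in 1 Pard3HMKO library (54.4) and in both Pard3WT libraries (77.8 and 202), and chr5:90485517-90486051, between Alb and Afp, was lost with scores of 50.6 and 66.4 in the Pard3WT libraries. Afp, the fetal counterpart of albumin, had 5 regions, of which 3 had a peak in all 4 libraries and 2 were lost, 1 of them the region shared with Alb.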

How the data were processed

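Each ATAC-seq library came as a list of peaks on mm10 with a score per peak; the scores were deposited by the authors, start at 50 and were used only to rank and describe peaks. Per the submitters' processing notes, the tools were MACS 1.4.2 and HOMER, SAMtools 1.3.1, Bowtie2 2.2.5, FastQC and Trimmomatic 0.38; the role of each is not given in the sources used here. No read counts came with the peaks, so the depth of a library is unknown and its number of peaks is given instead. Each list belongs to 1 library, and 2 deposited RNA tables were not used.

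From these lists, overlapping or touching peaks of the 4 libraries were merged into regions with Python 3.11.15 (numpy 2.4.6, pandas 2.3.3), and a peak of any overlap marked a region as open. Genes, spans and start sites came from RefSeq tables on GRCm38.p6; regions within 10 kb of a gene span were counted for it, and chromosome 18 was left out of the distances to start sites. The number of peaks was compared with an exact permutation test (scipy 1.17.1); single regions and gene lists have no test with 2 libraries a group. The region code was tested on simulated peaks. The members and the 19 gene lists were chosen with earlier results of these data known; 4 list genes were not in the annotation. Genes are named by a rule: Pard3, Yap1, Alb and Afp, the 10 gained and 10 lost regions with the highest lower score, up to 4 a list and direction, up to 10 a direction shared with E17.5 or PD, and up to 6 genes a direction with 3 or more regions. Genes named outside it, such as Cgn, Nectin1, Cyp2d10, Cdh1, Spi1, Itgam, Lyz2, Serpinh1, Ccl3, Pik3cg and Klkb1, were chosen after their values were seen. Other settings tried were a score of 100 or more, a cover of 50%, an equal number of peaks, merging over 100 bases or over all 22 libraries, 2 kb and 50 kb to the gene, and each library left out. The replicate numbers are the only link between libraries of the 2 genotypes. A few regions that the naming rule picks are not reported here.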

Additional observations from a re-analysis of the deposited data

How the results depend on the processing

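With peaks of a score of 100 or more, 650 regions were gained and 2425 lost, near 525 and 1910 genes. With the same number of peaks per library, 2436 were gained and 2822 lost, near 1877 and 2010 genes. Within 50 kb of a gene in place of 10 kb, 2517 genes had a gained and 8196 a lost region. Leaving out 1 library at a time gave 1892 to 5961 gained and 7123 to 16298 lost regions. In 2 settings chosen after seeing the data, 171 gained regions had a peak in all 3 E17.5 Pard3HMKO libraries and 986 lost regions had a peak in all 3 E17.5 Pard3WT libraries. No share of all regions with such peaks is given here, so these are counts without a background. Single E17.5 libraries held a peak in 45.7% to 46.6% (Pard3HMKO) and 43.6% to 49.1% (Pard3WT) of all regions. A cover of 50%, merging over 100 bases and merging over all 22 libraries left both counts of regions within 1.5 times. The difference in peaks kept its sign in every setting that did not fix the number of peaks per library, at -15101.0 to -5082.0 with 1 library left out. Keeping the same number of peaks per library leaves no difference by construction. With the replicate number as a block the difference in peaks was -10091.5 (exact sign-flip permutation test, p = 0.5). That is the smallest p that 2 blocks allow in a 2-sided test, so it cannot weigh the difference. Gained and lost regions come from no test that a block could enter. Of the counts of genes per list under other settings, 92 moved by over 1.5 times and 60 did not. All 72 shares of gained or lost regions with a peak in 1 of the other libraries moved beyond their 95% binomial interval. That interval treats regions as independent, and the settings change which regions are counted, so it measures no spread between libraries. The cause was not tested. With 2 libraries a group and no reads, a region near the score limit of 50 can change class with depth, and no error can be given for a single region.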
